A study of Mus musculus with 7 samples.

Results

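To describe the rare myeloid cells of murine malignant peripheral nerve sheath tumors (MPNSTs) that carry transcripts of osteoclasts, cells were selected from single-cell RNA profiles of 7 tumors by the unique molecular identifiers (UMIs, 1 per captured transcript molecule) of Acp5, Atp6v0d2 and St18. A cell counted as osteoclast-like when it had at least 500 genes and at most 10% mitochondrial UMIs, at least 1 UMI each of Acp5 and Atp6v0d2, and at least 4 UMIs of the 3 genes together. It also had to carry Ptprc, Csf1r or Adgre1, to lack UMIs of the cycling genes Mki67 and Top2a and of Cd3e, Cd3d and Cd3g, and to hold at most 1 UMI of the tumor genes Tafa1, Unc5c and Col11a1. The rule took 179 of the 33136 cells that passed the filter on genes and mitochondrial UMIs, or 0.54%, out of 39537 cells in the libraries. Irradiated tumors 1 to 4 gave 9, 6, 18 and 4 osteoclast-like cells, and control tumors 1 to 3 gave 14, 76 and 52.

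The tumors were grown from JW23.3, a mouse MPNST line with mutant Nf1 and Trp53, whose cells were implanted under the skin of female wild-type C57/B6 mice 5 to 6 weeks old. The irradiated group had 4 tumors that received 5 daily fractions of 2 Gy with shielding around the tumor, and the control group had 3 tumors that received no radiation. Mice were randomized on day 7 and all tumors were taken on day 21, dissociated with papain and run as 1 droplet library per tumor, so that the tumor was the replicate. All tumors came from 1 implanted line, so differences between tumor lines were not sampled.

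Osteoclasts are large cells of the monocyte and macrophage lineage that dissolve bone. Their precursors need the cytokine M-CSF, which signals through Csf1r, and RANKL, which signals through RANK (Tnfrsf11a) and raises the transcription factor Nfatc1. Mature cells fuse, seal off a patch of bone with an actin ring, pump acid through a vacuolar proton pump (V-ATPase) and release proteases such as cathepsin K (Ctsk) onto the matrix. Acp5 encodes tartrate-resistant acid phosphatase, the classic stain for these cells, and Atp6v0d2 encodes a V-ATPase subunit of osteoclasts that is also needed for their fusion.

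Promoters of genes of this program are shown because the factor Mitf and its relatives, which act in osteoclasts, bind E-box elements of the form TCANGTG. The 250 bases before a RefSeq start site are printed 5′ to 3′ on the gene's strand from GRCm38.p6, with any TCANGTG on either strand in capitals.

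Acp5, chr9:22130599-22130848, minus strand: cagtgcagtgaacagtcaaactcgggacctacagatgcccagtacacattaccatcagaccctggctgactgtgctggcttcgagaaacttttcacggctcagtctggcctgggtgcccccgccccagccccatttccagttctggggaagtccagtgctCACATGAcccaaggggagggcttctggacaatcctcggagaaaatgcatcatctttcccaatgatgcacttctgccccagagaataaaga

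Oscar, chr7:3616158-3616407, minus strand: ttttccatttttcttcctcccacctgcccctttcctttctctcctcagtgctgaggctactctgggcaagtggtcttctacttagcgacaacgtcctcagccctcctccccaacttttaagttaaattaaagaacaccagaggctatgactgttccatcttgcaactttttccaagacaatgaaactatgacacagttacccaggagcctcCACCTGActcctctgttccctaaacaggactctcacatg

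Ctsk, chr3:95498960-95499209, plus strand: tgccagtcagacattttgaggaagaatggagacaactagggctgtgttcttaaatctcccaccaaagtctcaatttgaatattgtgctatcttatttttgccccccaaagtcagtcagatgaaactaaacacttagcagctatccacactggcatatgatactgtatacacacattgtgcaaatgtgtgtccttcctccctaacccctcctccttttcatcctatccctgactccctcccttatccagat

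The Acp5 window held the element as CACATGA, read on the opposite strand, starting 90 bases before the start site, and the Oscar window held CACCTGA starting 39 bases before it. No match was found in the Ctsk window. Of the 3 Acp5 start sites in the reference table, the one with a match is shown. RefSeq windows were found for 14 of 22 genes (the selecting genes, osteoclast genes and the 10 genes most raised in the osteoclast-like cells), and 3 of their 19 windows held the element, or 15.8%. Among all 32851 windows of the table the share was 12.2%.

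The osteoclast-like cells were deeply sampled. Their median UMI count per tumor ran from 10398 in control 2 to 27324 in irradiated 2, and together they held 2589262 UMIs, between 94275 (irradiated 4) and 827502 (control 2) per tumor. As a comparison set, 7231 other Csf1r+ myeloid cells were taken from the same tumors with the same filters, at most 1 UMI of the 3 selecting genes and no Flt3, a dendritic cell gene. Median UMIs of those cells were lower in every tumor, at 4073 to 10510. The rule asked for at least 4 UMIs of the 3 genes and the comparison set for at most 1. A deeper cell meets the first more readily and the second less readily. The part of this in the gap was not tested. The median mitochondrial share was 4.03% to 6.12% in the osteoclast-like cells and 1.81% to 4.24% in the other myeloid cells, higher in 7 of 7 tumors by 2.10 ± 0.866 percentage points (SD, n = 7, exact permutation test of signs, two-sided p = 0.0156, the smallest this design allows). The part of depth and mitochondrial share in the results below was not tested, apart from a comparison with the deeper of the other myeloid cells. Scrublet, a doublet caller that marked 2.23% of all cells, marked 0 of the 179. Libraries shared 3 to 19 cell barcodes per pair, at most 0.397% of the smaller library, and no pair shared an osteoclast-like cell. Xist, a transcript of female cells, was found in 75.0% to 100% of the osteoclast-like cells and in 3.48% to 7.27% of the tumor cells of each library, with the hosts being female.

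The selecting genes themselves varied widely among the cells. Acp5 ran from 1 to 1368 UMIs per cell with a median of 74, Atp6v0d2 had a median of 17 and a highest value of 120, and St18, a zinc finger transcription factor, was found in 161 of the 179 cells with a median of 9. Csf1r was found in 173 cells, Ptprc (CD45) in 152 and Adgre1 (F4/80) in 37. Near the threshold, 9 cells held 4 or 5 UMIs of the 3 genes and 13 Ctsk UMIs in all (165 CPM, counts per 1000000 UMIs). Of those 13 UMIs, 12 came from 1 cell of control 3. The remaining cells of the 9 held 0 or 1 Ctsk UMI and 12 to 94 UMIs of the complement gene C1qa each. A further 9 cells that met the other conditions fell just short with 2 or 3 UMIs and 5 Ctsk UMIs in all (85.7 CPM). All 5 were in control 3. St18 was not limited to osteoclast-like cells. Between the 2 sets lay 1090 Csf1r+ cells with more than 1 UMI of the selecting genes that did not meet the rule. These held St18 at 276 CPM beside Atp6v0d2 at 4.68, Ctsk at 9.60 and C1qa at 5168 CPM. Since St18 UMIs helped to place cells in this group, that St18 level is partly set by the choice. The other myeloid cells, chosen for at most 1 UMI of the selecting genes, held St18 at 4.58 to 10.7 CPM.

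Ctsk, which the rule did not use, parted the selected cells. It reached at least 10 UMIs in 138 of 179 cells, or 77.1%, with a median of 157 UMIs, and those cells had a median of 101.5 Acp5 UMIs. In 31 cells, or 17.3%, Ctsk was at 0, the median Acp5 count was 3, and 19 of the 31 held 10 or more UMIs of the complement genes C1qa, C1qb and C1qc, which mark resident-type macrophages. Among the 138 cells with at least 10 Ctsk UMIs, 8 reached that level of complement transcripts. Cells with no Ctsk were found in 6 of 7 tumors and made up 27.8% of the 18 cells of irradiated 3, 21.1% of the 76 of control 2 and 7.14% of the 14 of control 1. Several cells went against the pattern. One cell of irradiated 4 had 543 Acp5, 120 Atp6v0d2 and 1 Ctsk UMI among 60168 UMIs. A cell of irradiated 3 had 32 Acp5, 15 Atp6v0d2, 47 St18 and 0 Ctsk UMIs with 1 of C1qa. A cell of control 2 had 46 Acp5 and 0 Ctsk UMIs, also with 1 of C1qa. In the other direction, a cell of control 1 had 2 Acp5 and 138 Ctsk UMIs. These classes were formed after the values were seen and are described without a test.

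**Figure D1:**
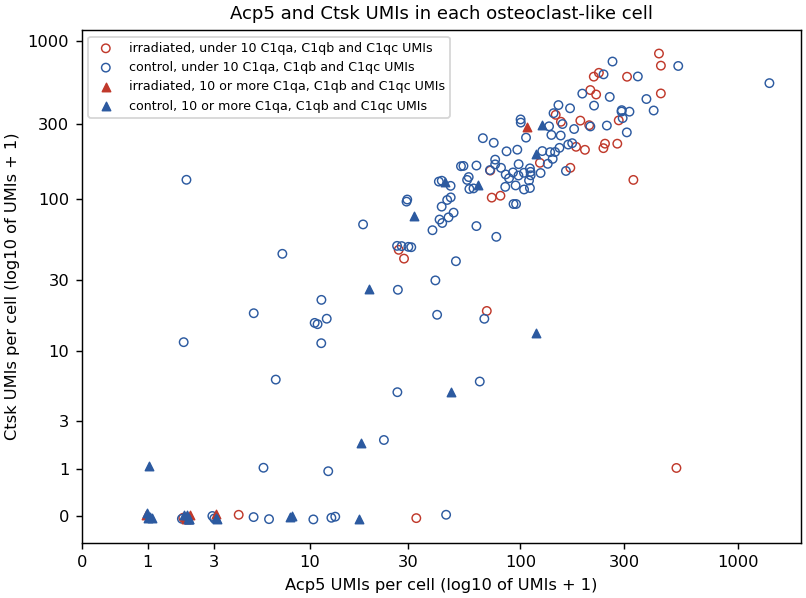
Acp5 and Ctsk UMIs in each of the 179 osteoclast-like cells, on log10(UMIs + 1) axes with a small sideways shift to part overlapping points. Red marks irradiated and blue control tumors, and filled triangles are cells with 10 or more C1qa, C1qb and C1qc UMIs. Most cells rise along a diagonal in both genes, and 31 cells lie at 0 Ctsk.

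The first comparison asked which genes set the osteoclast-like cells apart from the other myeloid cells of the same tumors. UMIs were summed per tumor and set, and the test (edgeR's quasi-likelihood test with the tumor as a block and Benjamini-Hochberg adjustment) was fitted on the 4 tumors with at least 10 osteoclast-like cells, irradiated 3 and controls 1 to 3. The 14 genes of the rule and Flt3 were left out. Of 11413 genes, 4963 were called (43.5%), with 2157 higher (18.9%) and 2806 lower (24.6%) in osteoclast-like cells at an adjusted p under 0.05, so that nearly any list of genes could be expected to hold some calls. The median log2 fold change over all genes tested was -0.06. Other myeloid cells of matched depth here means those with at least the lower quartile of UMIs of the osteoclast-like cells of their tumor. Their median UMIs were 19713.5, 20472.5, 8596.5 and 10832.5 in irradiated 3 and controls 1 to 3. The osteoclast-like cells had 22820, 20267.5, 10397.5 and 12622, so depth was nearer but not equal. Irradiated 3 gave 34 such cells. Against these cells, 3801 of 8230 genes were called (46.2%), 22.4% higher and 23.7% lower, with a median of 0.01. Levels below are CPM of the summed counts over the 7 tumors, and they are not corrected for gene length because the assay counts transcript ends.

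Matrix-degrading enzymes led the list. Ctsk, the cathepsin that cleaves bone collagen, ran from 9804 to 13576 CPM in the osteoclast-like cells with a median of 10582, against 1.14 to 9.06 in the other myeloid cells. Each tumor lay above every value of the other set, and the log2 fold change was 10.78 ± 0.27 (SE, n = 4 tumors, adjusted p = 6.42e-12). Mmp9, a gelatinase of osteoclasts and neutrophils, stood at 1496 to 4510 CPM against 0.912 to 2.33, a log2 fold change of 10.83 ± 0.22 (adjusted p = 5.47e-22). Mmp14, a membrane-bound collagenase, was higher as well, at 292 to 605 against 102 to 161 CPM. The remaining members of the list moved the other way or not at all. Among 12 protease genes, 3 rose and 6 fell, the latter being the endolysosomal enzymes Ctsb, Ctsd, Ctsl, Ctss, Ctsz and Lgmn, and the median was -0.23. The call for Ctsl was lost without control 1 or control 3. Cathepsin S (Ctss), which trims the invariant chain of MHC class II, was at 340 to 626 CPM in the osteoclast-like cells and 2690 to 3615 in the others, with no overlap.

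Receptors of the osteoclast lineage were raised along with them, 7 of 9 genes higher and 2 lower with a median of 1.64. RANK (Tnfrsf11a) was at 509 to 747 CPM against 148 to 197, a log2 fold change of 1.64 ± 0.13 (adjusted p = 2.13e-10). Oscar, an immunoglobulin-like receptor that costimulates osteoclast formation, whose upstream window is printed above, was at 31.2 to 245 CPM, while the 7231 other myeloid cells held 2 UMIs. The calcitonin receptor (Calcr) gave 82 UMIs in 23 osteoclast-like cells and 0 UMIs in the other set, at least 550-fold higher against a floor of 3 UMIs over the 7 tumors. Its level was uneven, at 70.1 CPM in control 2, 24.0 in irradiated 3, 18.6 in control 3, 5.97 in irradiated 2, 3.24 in control 1 and 0 in irradiated 1 and 4. The sets therefore overlapped at 0 for Calcr, and 58 of the 82 UMIs came from control 2. Siglec15, a receptor that signals through DAP12 in osteoclasts, had 50 UMIs against 0, at least 335-fold higher by the same floor, and was above 0 in all 7 tumors. Of the integrin pair that binds bone matrix, Itgb3 was at 7.79 to 149 CPM against 0.228 to 1.55 and Itgav at 753 to 1443 against 326 to 438. The adaptor DAP12 (Tyrobp) rose by 0.39 ± 0.12 on the log2 scale (adjusted p = 0.0104), a call that was lost without irradiated 3 or without control 2. Its partner Trem2 and the adaptor Fcer1g were lower, by log2 fold changes of -1.12 ± 0.14 and -1.31 ± 0.12.

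Among transcription factors, 9 of 12 genes were higher and 2 lower, with a median of 1.17. Nfatc1, the factor that RANK signaling raises, was at 783, 915 and 800 CPM in controls 1 to 3 and 1036, 1134, 719 and 955 in irradiated 1 to 4. All 7 values lay above the range of the other myeloid cells, 38.7 to 45.5 CPM, with a log2 fold change of 4.18 ± 0.14 (adjusted p = 1.76e-17). Ppargc1b, a coactivator of mitochondrial genes in osteoclasts, rose by 4.39 ± 0.20, Jdp2 by 2.83 ± 0.14 and Prdm1 (Blimp1), which silences repressors of osteoclast formation, by 2.67 ± 0.17 on the log2 scale. Mitf, the E-box factor named above, was at 318 to 587 CPM against 188 to 239. Its relative Tfec was higher too and Tfeb did not pass the test. Tfe3 was called lower at -0.60 ± 0.23, and lost that call without irradiated 3, control 1 or control 3. Repressors of osteoclast formation were lower. Irf8 was at 0 to 62.3 CPM against 173 to 234, Bcl6 fell by 2.10 ± 0.18 and Id2 by 1.86 ± 0.17 on the log2 scale.

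Genes of cell fusion were split. The fusion proteins Dcstamp and Ocstamp rose by 6.89 ± 0.28 and 6.82 ± 0.52 on the log2 scale, with Dcstamp at 173 to 415 CPM against 1.53 to 8.78 and Ocstamp at 79.3 to 202 against 0 to 1.72. The tetraspanin Cd9 also rose. Cd47 and its receptor Sirpa fell, and the other 3 of 8 genes did not pass the test, for a list median of -0.26. The direction of that median turned against cells of matched depth, where 4 of 7 genes were higher and 2 lower with a median of 0.43. Droplet capture sees single particles small enough to pass the 40 µm filter, and the number of nuclei per cell was not measured.

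The acid machinery was raised almost throughout. Of 8 genes of acid secretion, 7 rose and 0 fell, with a median of 2.17. Slc9b2, a sodium and proton exchanger, was at 483 to 842 CPM against 0.13 to 1.90, Car2, the carbonic anhydrase that supplies protons, at 6.47 to 71.2 against 0 to 1.25, and Tcirg1, the V-ATPase a3 subunit of the ruffled border, at 211 to 361 against 73.6 to 124. The chloride transporter gene Clcn7 and the vesicle genes Snx10 and Plekhm1 were higher as well, and Ostm1, the partner of Clcn7, did not pass the test, with a log2 fold change of 0.21 ± 0.22. Of 15 further V-ATPase subunits, 12 rose with a list median of 1.31. Those that fell were Atp6v0a1 (-2.57 ± 0.24) and Atp6v0d1 (-0.94 ± 0.15), the widely expressed forms of the subunits that Tcirg1 and Atp6v0d2 replace. Atp6v0a1 was at 12.0 to 31.2 CPM in the osteoclast-like cells and 72.7 to 97.1 in the others.

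Genes of the sealing zone were mixed, with 5 of 9 higher, 3 lower and a median of 0.36. Src, the kinase without which osteoclasts form no ruffled border, was at 62.3 to 126 CPM against 4.56 to 11.4, a log2 fold change of 3.68 ± 0.20. Dock5, Sh3pxd2a (Tks5, a podosome scaffold), Gsn and Ckb (creatine kinase B) were higher, and Cbl, Vav3 and Fermt3 were lower. The small change of Fermt3 (-0.35 ± 0.14) lost its call when any 1 tumor was left out or when counts were scaled by relative log expression, and that of Gsn (0.36 ± 0.14) without control 2 or control 3.

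All 15 genes of oxidative phosphorylation rose, with a median of 1.55, from 1.15 ± 0.14 for Cox7b to 1.99 ± 0.14 for Uqcrfs1 on the log2 scale, and 14 of the 15 did not overlap between the sets in any tumor. In the 7-tumor fit, 22.5% of 11951 genes did not overlap. Glycolysis and hypoxia genes held 2 higher and 2 lower of 9, with a median of 0.10. The transferrin receptor (Tfrc), which brings in iron, was raised 5.24 ± 0.37 on the log2 scale, at 143 to 1082 CPM against 6.78 to 9.34, while the ferritin genes Fth1 and Ftl1 and the phagosomal metal transporter Slc11a1 were lower, with the call for Ftl1 lost without control 1 or control 2. Lpl (lipoprotein lipase) rose by 4.87 ± 0.56, at 63.6 to 524 CPM against 3.56 to 15.9, whereas Apoe, an apolipoprotein of macrophages, fell, from between 8341 and 17282 CPM in the other cells to between 329 and 2444. Both belong to a list of 14 lipid-associated macrophage genes, of which 12 were tested, 4 rose and 5 fell, with a median of -0.18 that turned to 0.03 against cells of matched depth. Gpnmb and Mgll of that list had 0 UMIs in the osteoclast-like cells.

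**Figure D2:**
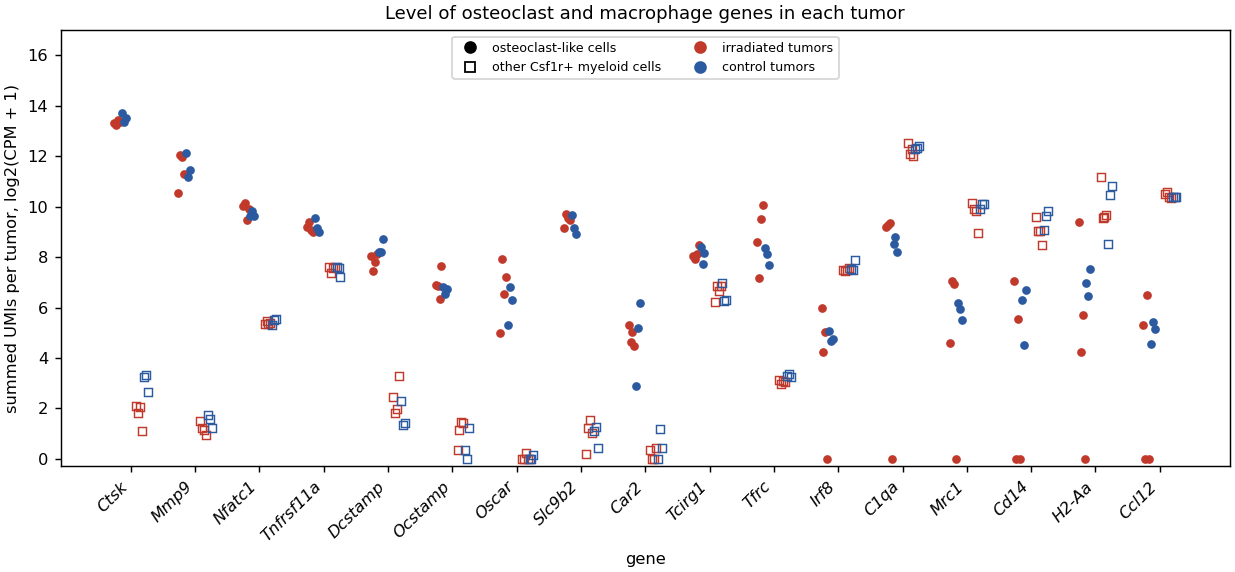
Summed level of 17 genes in each tumor as log2(CPM + 1), in osteoclast-like cells (filled circles) and other Csf1r+ myeloid cells (open squares), with irradiated tumors in red and controls in blue. The osteoclast genes on the left, from Ctsk to Tfrc, lie higher in the osteoclast-like cells, and the macrophage genes on the right, from Irf8 to Ccl12, lie lower within each tumor, with H2-Aa overlapping between tumors.

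Macrophage transcripts were low in these cells, although the cells were chosen to carry Ptprc, Csf1r or Adgre1. Of 8 pan-macrophage genes, Cd68 rose (467 to 1252 CPM against 309 to 435) and the other 7 fell, among them Lyz2, Cd14, Aif1, Fcgr1 and Mertk, for a median of -3.24. The 11 resident-type genes that passed the filter on low counts all fell with a median of -3.45, or -3.26 with Cd163, which had 0 UMIs, placed at its bound. C1qa was at 592, 621, 661 and 0 CPM in irradiated 1 to 4 and 362, 448 and 292 in controls 1 to 3, against 4147 to 5973 in the other myeloid cells. These levels rested on few cells. Single cells with 0 Ctsk UMIs held 60 C1qa UMIs in irradiated 1, 101 in irradiated 2, and 71, 104 and 94 in irradiated 3. The other osteoclast-like cells of those tumors held at most 11 each. In control 2, cells with Ctsk UMIs held up to 53. All 7 genes of MHC class II fell (median -2.90), and 5 of 6 monocyte genes fell (Ly6c2, Ccr2, Plac8, Vcan and Fn1), where Vcan lost its call without control 1 or control 2. The exception in that list was S100a4, a calcium-binding protein of motile cells, at 2337 to 3182 CPM against 85.1 to 462. Of 9 inflammatory genes 8 fell, with Chil3 at 0 UMIs, at least 29.5-fold lower. Against cells of matched depth, 5 of 6 MHC class II, 5 of 7 inflammatory, 3 of 4 monocyte and 4 of 10 dissociation stress genes that could be tested fell. In the main comparison 8 of 10 dissociation stress genes had fallen, and Dnajb1, a heat shock gene, had risen.

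Several chemokines were lower as well. No interferon response gene was called higher, and how many were called lower differed between fits. Ccl12, a monocyte attractant, was at 0 to 88.9 CPM against 1284 to 1523, and Ccl2, Ccl4 and Ccl7 were also called lower, though each of these calls was lost when any 1 control was left out. Ccl9, which osteoclasts are known to secrete, was the one of 7 monocyte chemokines that rose, by 1.37 ± 0.24, and it did not pass in the fit of all 7 tumors. Of 18 type I interferon response genes 0 rose and 10 fell, with a median of -1.76, and 2 of the 18 (Bst2 and Ifitm3) had no overlap between the sets, where 22.5% of all genes had none. Against myeloid cells of matched depth 4 of 17 were called lower, near the 23.7% of all genes, and in the fit of all 7 tumors, where 19.6% of all genes were higher and 26.5% lower, 14 of 18 were. The type II list held 2 lower of 12 (Cxcl10 and Tap1), with a median of -0.56, and both calls were lost without control 2.

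**Figure D3:**
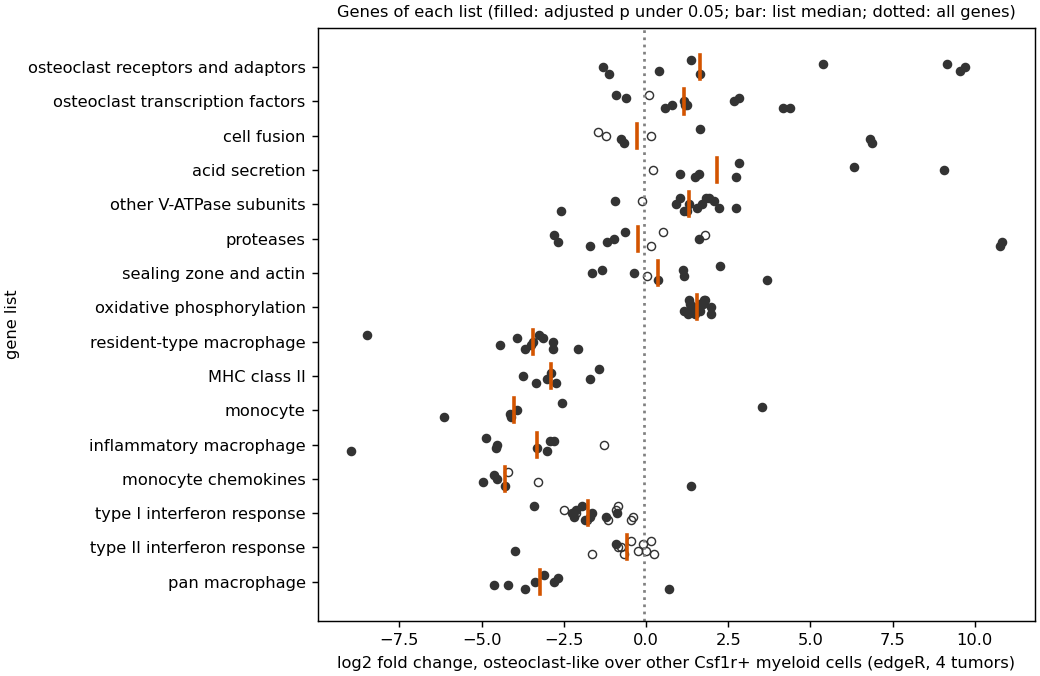
Log2 fold change of each gene between osteoclast-like and other Csf1r+ myeloid cells (edgeR, 4 tumors), by list. Filled points passed an adjusted p of 0.05, orange bars are list medians and the dotted line is the median of all 11413 genes tested, -0.06. Points beyond 9 or below -8 include genes with 0 UMIs in one set, whose fitted value depends on the prior count.

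By the size of the change, with at least 50 CPM in the higher set and the same sign in each of the 4 tumors, the 10 leading genes were Mmp9, Ctsk, Nyap2, Mt3, Rufy4, Oscar, Slc9b2, Akap6, Cyp2s1 and Dgki. Rufy4, an adaptor of lysosome positioning, was at 81.7 to 202 CPM and held 4 UMIs in all the other myeloid cells together. Akap6, an anchor of protein kinase A, was at 159 to 251 CPM against 0 to 1.70, and Nyap2 at 85.7 to 170 with 3 UMIs in the other set. Dgki, a diacylglycerol kinase, varied most, from 31.8 to 657 CPM. The 10 leading lower genes were Nlrp1b, Plbd1, Cd300lf, Ang, Vcam1, AW112010, Thbs1, Ly6a, Ccl12 and Plxnc1, and Thbs1 (thrombospondin 1) fell from 308 to 468 CPM in the other cells to 0 to 16.8. In the fit of all 7 tumors these 20 genes kept their fitted direction, but that fit includes the 4 tumors that chose them and is no separate check.

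Markers of most other blood and vessel cells were at or near 0. The summed level of 8 T and NK genes was 3.63 to 21.2 CPM in the osteoclast-like cells, with 6 of the 8 at 0 UMIs, that of 6 granulocyte genes 0 to 10.9 with 4 at 0, that of 6 dendritic genes 0 to 9.67 with 3 at 0, that of 4 mast cell genes 0 to 1.55 with 3 at 0, that of 5 endothelial genes 0 to 5.97 with 2 at 0, and that of 4 B cell genes 0 to 12.0 with 2 at 0. Trac, a T cell receptor gene, was the exception within its list, with 15 UMIs against 13 in the far larger set of other cells. The 8 tumor and matrix genes summed to 65.0 to 385 CPM, within the 107 to 627 of the other myeloid cells or below it, while in the tumor cells Col1a1 alone was at 3793 to 6618 CPM. The 7 fibroblast and pericyte genes summed to 21.2 to 110 CPM against 11.5 to 107, above the other myeloid cells in every tumor except control 3, and their part in the results was not tested. Cspg4, listed for pericytes, was called higher, at 17.9 to 78.5 CPM against 1.04 to 18.96. The 3 erythroid genes summed to 58.0 CPM in control 2 (48 UMIs, against 17.01 CPM in its other myeloid cells) and 0 in the osteoclast-like cells of the other tumors, and Hbb-bs, a globin gene, was called higher on 45 UMIs of control 2.

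Ligands for these receptors were read mostly from other cells. Tumor cells, taken as cells with at least 5 tumor gene UMIs and none of Ptprc, Csf1r and Adgre1, held Csf1 (M-CSF) at 179 to 307 CPM per tumor, Il34, the second Csf1r ligand, at 26.6 to 77.2 and the decoy receptor for RANKL, Tnfrsf11b (osteoprotegerin), at 10.8 to 35.9. RANKL (Tnfsf11) was at 4.13 to 8.02 CPM in tumor cells and 27.9 to 62.2 in T cells, and had 0 UMIs in the osteoclast-like cells. No direction of signaling can be read from these levels.

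The next comparison asked whether irradiation changed how many such cells were found. They made up 0.143%, 0.26%, 0.592% and 0.136% of the filtered cells of irradiated 1 to 4 and 0.277%, 1.10% and 0.79% in controls 1 to 3. Irradiated 3 lay above control 1, and the groups overlapped. Group means were 0.283% ± 0.214 (SD, n = 4) and 0.723% ± 0.416 (SD, n = 3), a difference of -0.44 percentage points (two-sided exact permutation p = 0.114, adjusted over 2 shares 0.114, smallest possible p 0.0286). As a share of Csf1r+ myeloid cells the means were 1.05% ± 0.855 and 2.85% ± 1.35 (exact permutation p = 0.0857, adjusted 0.114). Neither difference passed the test. Leaving out 1 tumor moved the first from -0.251 percentage points without control 2 to -0.663 without control 1, and the second from -1.10 to -2.45 for the same tumors. Counting error alone was wide for the rarest, 0.053% to 0.35% for the 4 cells of irradiated 4 (95% Wilson interval).

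Libraries also parted by technical measures. The split of the 7 libraries with the least variation in cell number, median UMIs, median genes and mitochondrial share put irradiated 1 with controls 2 and 3 (set 1) and irradiated 2 to 4 with control 1 (set 2), though the parting was not sharp. Within set 1 the share of cells was 0.143% in the irradiated tumor and 0.946% in the controls on average. Within set 2 it was 0.329% in the irradiated tumors on average and 0.277% in the 1 control, so the direction of the mean did not hold there. Irradiated 3, at 0.592%, lay above that control, and irradiated 2 and 4, at 0.26% and 0.136%, lay below it. For the share of myeloid cells the values were 0.641% against 3.50% in set 1 and 1.18% against 1.54% in set 2. The set was found from the files and is not a batch named in the labels. With the set as a term the differences were -0.35 and -1.54 percentage points (exact permutation within sets, p = 0.25 for each, smallest possible p 0.0833). Fewer cells in a library and poorer recovery of fragile or large cells cannot be told apart here.

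**Figure D4:**
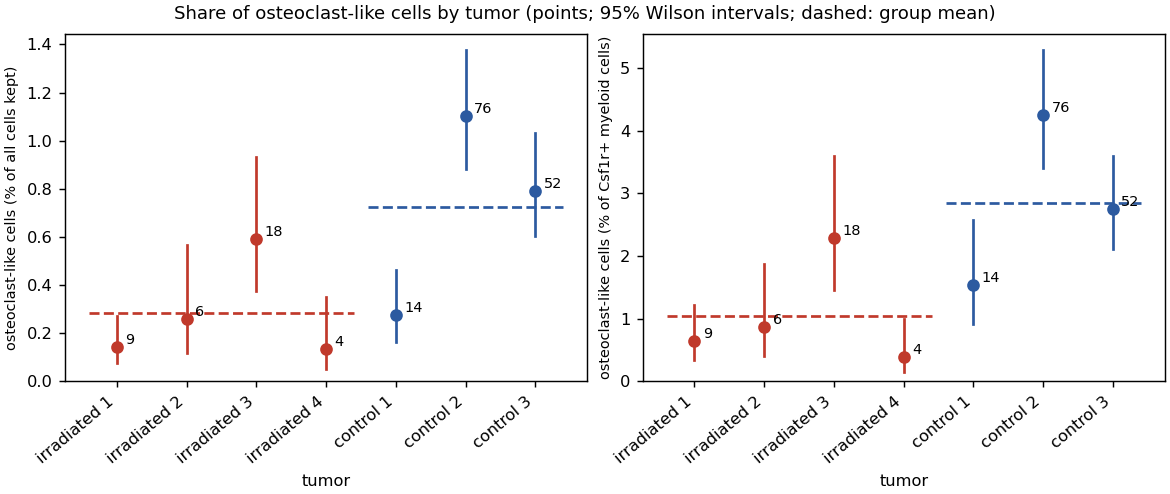
Osteoclast-like cells as a percentage of all cells kept (left) and of Csf1r+ myeloid cells (right) in each tumor, with 95% Wilson intervals, the number of cells beside each point and dashed lines at the group means. Irradiated 1, 2 and 4 lie lowest and controls 2 and 3 highest, with irradiated 3 above control 1 in both panels.

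A further question was whether genes within the osteoclast-like cells differed between irradiated and control tumors. In the planned fit irradiated 3 was the lone irradiated tumor and was assumed to vary like the 3 controls, so its calls set that 1 tumor apart from the controls and say nothing of irradiated tumors in general. That fit called 32 of 7268 genes (0.44%), 28 higher (0.385%) and 4 lower (0.055%). The 5 leading higher genes were Gdf15, Ccl8, Ccl2, Ccl7 and Ccl3, and the lower genes were H2ac6, H2-Eb1, Spp1 and Cd52. H2-Eb1, an MHC class II gene, turned from -2.33 in this fit to 0.43 with all 7 tumors and back to -2.28 with irradiated 1 left out of these. Ccl2 was at 151 CPM in irradiated 3, at 38.9, 35.8 and 10.6 in irradiated 1, 2 and 4, and at 22.6, 8.46 and 3.09 in controls 1 to 3. In irradiated 3, at least 50% of the UMIs of Pdpn, Ccl6, Pmp22, Srgn, Ep400 and Ctsl came from 1 cell. It had 2 Acp5, 14 Atp6v0d2 and 0 Ctsk UMIs with 71 of C1qa. At least 50% of the Ccl8 UMIs came from a cell with 2 Acp5, 8 Atp6v0d2, 4 St18, 0 Ctsk and 104 C1qa UMIs. Both cells hold at least 8 UMIs of the selecting genes. All 63 Ccl2 UMIs of irradiated 3 came from 1 other of its 18 cells, and so did 78 of its 81 Ccl7 UMIs and all 26 of Ccl3. That cell had 3 Acp5, 1 Atp6v0d2 and 0 Ctsk UMIs with 94 of C1qa. For 19 of the 28 higher genes, at least 50% of the UMIs of irradiated 3 came from 1 cell, and for 8 of the 19 it was this cell. With at least 8 UMIs of the selecting genes required, 8 genes were called, 7 of them among the 32.

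No gene passed when all 7 tumors were fitted, an alternative added after the numbers of cells were seen. It called 0 of 4711 genes with edgeR (139 at an unadjusted p under 0.05) and 0 with DESeq2 (78 at an unadjusted p under 0.05). The 3 genes with the smallest p in each direction were Ndel1, Pcdh7 and Ppdpf, higher after irradiation, and Rassf8, Rnf180 and Mt3, lower, each with an adjusted p of 1.00. Ndel1 had the smallest unadjusted value, a log2 fold change of 1.13 ± 0.28 (edgeR, unadjusted p = 0.000745). None of the osteoclast lists held a call in this fit. Median log2 fold changes were 0.08 for receptors, -0.09 for transcription factors, -0.08 for acid secretion, -0.04 for V-ATPase subunits and -0.08 for oxidative phosphorylation, beside 0.01 over all genes tested. Ctsk changed by -0.21 ± 0.17 (adjusted p = 1.00).

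Since the study followed interferon genes and monocyte chemokines after radiation, their levels in the osteoclast-like cells are given. Irf7, a driver of the interferon response, was at 132, 0, 16.8 and 10.6 CPM in irradiated 1 to 4 and at 146, 23.0 and 27.8 in controls 1 to 3. Ifitm3, a membrane protein that blocks viral entry, was at 397, 107, 151 and 255 against 346, 134 and 263, and its log2 fold change was -0.18 ± 0.43 (7 tumors, adjusted p = 1.00). Irf7 was below the count filter of that fit. In both genes the groups overlapped, and control 1 was above the other controls. Ccl7 was at 0 CPM in irradiated 1 and 4, 5.97 in irradiated 2 and 195 in irradiated 3, against 12.1 to 18.6 in the controls, and Ccl8 at 38.9, 0, 161 and 0 against 0, 9.67 and 15.5. Ccl12 changed by 0.34 ± 0.73 (adjusted p = 1.00).

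The last comparison asked whether irradiation changed genes differently in osteoclast-like cells than in the other myeloid cells. With irradiated 3 alone against the controls, a fit that has no spread among irradiated tumors and compares that 1 tumor, 98 of 12389 genes (0.791%) were called, 71 relatively higher (0.573%) and 27 lower (0.218%) in the osteoclast-like cells. Over all 7 tumors 8 of 11951 genes did (0.0669%), with Ctsk relatively higher (0.00837%) and Oas3, Mx1, Cmpk2, Zbp1, Oasl2, Apobec3 and Herc6 relatively lower (0.0586%), most of them interferon-induced antiviral genes. The last 2 are named here although they fell outside the naming rule of 5 per direction. Mx1 was at 24.9, 80.5, 68.4 and 114 CPM in the other myeloid cells of irradiated 1 to 4 and at 43.1, 24.1 and 30.7 in those of controls 1 to 3. The osteoclast-like cells held 0 Mx1 UMIs in the 4 irradiated tumors and 11, 3 and 4 in controls 1 to 3. Zbp1 stood at 46.1, 131, 91.7 and 188 CPM against 92.5, 35.4 and 43.0 in the other myeloid cells, and the osteoclast-like cells held 0, 0, 1 and 1 UMIs of it against 19, 6 and 12. The counts behind these calls were therefore few. Leaving out 1 tumor gave from 1 call (without control 1) to 50 (without irradiated 1), with 35 without control 2 and 22 without control 3, and DESeq2 called 0 (284 at an unadjusted p under 0.05). Ctsk differed by -0.21 ± 0.17 between irradiated and control tumors in the osteoclast-like cells, and in the other myeloid cells it was at 3.25, 2.54, 3.10 and 1.14 CPM in irradiated tumors against 8.42, 9.06 and 5.30 in controls. The osteoclast-like cells numbered 9, 6, 18 and 4 in irradiated 1 to 4 and 14, 76 and 52 in controls 1 to 3. The part of their free RNA in these Ctsk values was not tested.

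The type I interferon list held several of these genes. In the interaction over 7 tumors, 0 of its 18 genes were relatively higher and 3 lower, with a median of -1.93 beside -0.07 for all genes tested. Its summed level in the osteoclast-like cells was 1394, 275, 473 and 1124 CPM in irradiated 1 to 4 and 2323, 570 and 695 in controls 1 to 3. In the other myeloid cells it was 2106, 5068, 3847 and 6206 CPM against 3532, 1806 and 1988. The log2 difference between the sets ran from -4.20 to -0.59 in irradiated tumors and from -1.66 to -0.60 in controls, so the groups overlapped. Within technical set 2 it was -4.20 to -2.46 in the 3 irradiated tumors and -0.60 in the control, and within set 1 it was -0.59 in the irradiated tumor and -1.66 to -1.52 in the controls, the opposite order.

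**Figure D5:**
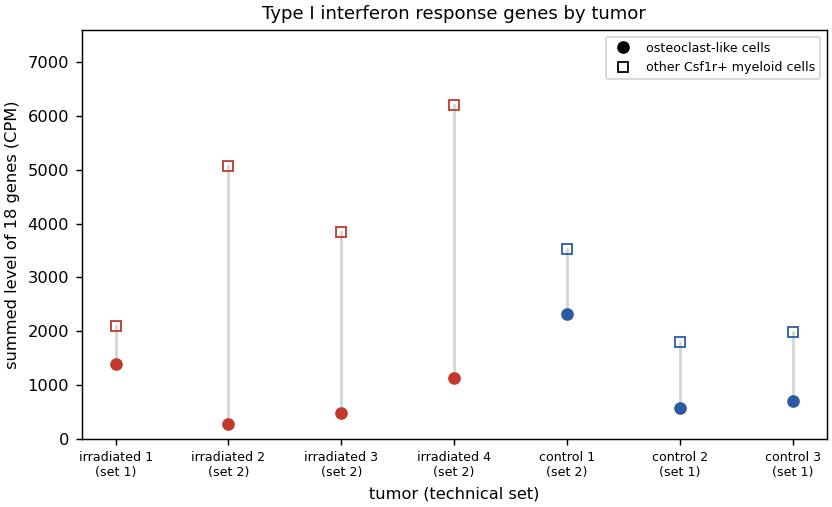
Summed level of the 18 type I interferon response genes (CPM) in osteoclast-like cells (filled circles) and other Csf1r+ myeloid cells (open squares) of each tumor, with irradiated tumors in red, controls in blue and the technical set under each name. The osteoclast-like cells lie below the other cells in all 7 tumors, with the widest gaps in irradiated 2, 3 and 4.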

How the data were processed

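Cells of 7 tumors were profiled with the 10x Genomics 3' assay (10000 cells loaded per library). The authors deposited UMI counts per gene and cell, whose file headers name Cell Ranger 8.0.0, another version than the study's methods state, so these counts may differ from those the study analysed. Per the submitters' processing notes the reads were aligned to mm10 and analysed with Seurat 4.4. Whether intronic reads were counted is not given in the sources used here. Library totals of the deposited counts ran from 53496570 to 153044123 UMIs. Groups came from the sample labels.

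The members and gene lists were chosen with earlier results of these data known, and the lists were written from general knowledge. Cells were selected with the rule above from 33696 features (13 mitochondrial). Tumors with under 10 members were left out of the planned fits. Summed counts were filtered (filterByExpr), scaled (TMM) and tested with edgeR 4.0.16 (robust quasi-likelihood, tumor as a block between cell sets, threshold 0.05). The code was tested on simulated data. Shares were compared with two-sided exact permutation tests over 35 splits. Wilson intervals and floors cover counting error only. Named genes were the list genes, the 10 largest called changes per direction (at least 50 CPM, same sign in each tumor), up to 5 called genes per direction for irradiation (the 3 smallest p per direction if fewer than 3 were called) and 7 genes the study follows. Seeds were 1. Alternatives were DESeq2 1.42.0, RLE scaling, no count filter, other gates and cell filters, and thinning to 4000 UMIs. Others were matched-depth comparison cells, comparison cells with both Mrc1 and C1qa, technical sets, replicate numbers and each tumor left out. The labels do not say whether tumors were dissociated on separate days, so p-values measure the spread among these tumors only. Between cell sets that is the spread of differences within tumors. The planned irradiation fits hold no spread among irradiated tumors. Replicate numbers were not used as pairs, since same-numbered tumors correlated at 0.0139, -0.011 and -0.108 after group means were removed. Aldoa was not analysed because 2 features carry its symbol, and some list genes are not reported here.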

Additional observations from a re-analysis of the deposited data

Results flagged for a closer look

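The following results stood out by fixed rules. Among 21 sets of 4 irradiated values examined for a value far from the others (both shares, 12 osteoclast genes and 7 genes that the study follows), 2 were marked, where chance marks about 1 in 20. They were Irf7 in the osteoclast-like cells of irradiated 1, at 132 CPM beside 0 to 16.8 in the other three, and Ccl7 in irradiated 3, at 195 CPM beside 0 to 5.97. The Irf7 value rests on 17 UMIs and the Ccl7 value on 1 cell.

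Genes whose response to irradiation differed between osteoclast-like and other myeloid cells by the interaction test (edgeR) were also marked. Over 7 tumors the log2 differences were 1.33 for Ctsk, -9.54 for Oas3, -9.46 for Mx1, -4.23 for Cmpk2, -4.20 for Zbp1 and -3.19 for Oasl2. With irradiated 3 as the lone irradiated tumor, which compares that tumor only, they were 10.87 for Chsy3, 10.11 for Aebp1, 8.27 for Ms4a4a, 7.13 for Tgfb2, 7.04 for Eda, -10.45 for Ifit3, -10.07 for Ifi209, -9.45 for Mx1, -9.41 for Oas3 and -4.49 for Cmpk2. The UMIs behind these values were few. In the osteoclast-like cells of irradiated 3 there were 7 UMIs of Chsy3, 3 of Aebp1, 5 of Ms4a4a, 4 of Tgfb2 and 9 of Eda, with at most 2 in any control, and 0 of Ifit3, Ifi209, Mx1 and Oas3. Fitted differences on such counts depend on the prior count.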

How the results depend on the processing

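The comparison of osteoclast-like with other myeloid cells called 3801 to 5512 genes under its alternatives, beside 4963. Of 203 called genes that are named or listed, 201 kept their sign throughout and 159 were called under every alternative run. Hbb-bs turned to -1.55 when cells with tumor gene UMIs were left out, and Hspa1a to 0.25 against cells of matched depth. For irradiated against control tumors, the 32 calls became 6 with DESeq2, 49 without the count filter, 8 with the gate of 8 UMIs, 55 with the technical set as a term, and 26 to 40 with a control left out. In these 4-tumor fits the technical set as a term left irradiated 3 compared with control 1 alone, the only control of its set. With all 7 tumors there were 0 calls, 0 with the technical set, 0 with DESeq2, 0 with the gate of 8 UMIs, 2 with the replicate number as a block, and 0 to 1 with a tumor left out. H2-Eb1 turned to 0.43 with all 7 tumors, 0.90 with the technical set, and 0.26 (without control 1), 0.34 (control 2), 0.78 (control 3), 0.83 (irradiated 2), 0.96 (irradiated 3) and 0.64 (irradiated 4) with a tumor left out. For the interaction, the 98 calls became 20 with DESeq2, 58 with the gate of 8 UMIs, and 55 (without control 2) to 125 (without control 1). With all 7 tumors there were 8, 9 with the gate of 8 UMIs, 0 with DESeq2, and with a tumor left out 50, 9, 6 and 10 (irradiated 1 to 4) and 1, 35 and 22 (controls 1 to 3). Without irradiated 3, Ms4a4a turned to -0.10 and Tgfb2 to -2.35. The cause of these moves was not tested. Fits without irradiated 3 were not run for the planned irradiation comparisons, since it was the lone irradiated tumor. The mean share of cells was higher in irradiated tumors within technical set 2 (0.0525 percentage points), where irradiated 3 alone lay above the control. Both share differences were negative under the other alternatives. The replicate block (-0.391 and -1.58), the technical set and leaving out a tumor could not give p below 0.05. Same-numbered tumors did not deviate together. Each tumor gave 4 to 76 osteoclast-like cells, which limits precision for low genes. The all-7 fits, matched gates for them and their left-out tumors were chosen after seeing the data.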

Other observations

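Cells that met every condition except the absence of Mki67 and Top2a UMIs numbered 48, with 4, 3, 6 and 2 in irradiated 1 to 4 and 6, 20 and 7 in controls 1 to 3. Pooled over tumors, they made up 21.1% of the 227 cells with osteoclast transcripts. The share of other Csf1r+ myeloid cells with a cycling UMI was 15.5% of 8560. In control 3 the order was reversed, at 11.9% against 14.7%. The other tumors ran from 20.8% to 33.3% against 11.9% to 19.6%. The cycling cells were more deeply sampled, at a median of 12462 to 43800 UMIs per tumor, and a deeper cell more readily shows 1 such UMI. Their summed Ctsk level was 3013 CPM beside 11242 in the non-cycling cells, and it was lower in 7 of 7 tumors. Mmp9, the fusion gene Ocstamp, Nfatc1 and Ppargc1b were also lower in 7 of 7 tumors, with Nfatc1 at 508 against 860 CPM and Ocstamp at 32.1 against 102. Pooled over tumors, C1qa stood at 543 CPM in the cycling cells and 435 in the others, but it was lower in the cycling cells of 4 of 7 tumors. These values are given without a test, since the cycling genes divided the cells.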
